A study of Arabidopsis thaliana with 44 samples.

Results

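Xyloglucan endotransglucosylase/hydrolases are the XTH enzymes of the plant cell wall, encoded in Arabidopsis thaliana by the genes XTH1 to XTH33. All 33 loci were taken by their locus identifiers from the 34262 genes listed for each library. Xyloglucan is a branched polysaccharide that coats and links cellulose microfibrils, and XTH enzymes cut a xyloglucan chain and either join the cut end to another chain or release it to water. They act when walls loosen, stiffen or take up new polymer during growth, and several members are known to answer touch, hormones and light, among them the touch gene TCH4, which is XTH22. In the usual grouping of the family, XTH1 to XTH11 are clade I, XTH12 to XTH26 as clade II and XTH27 to XTH33 as clade III, which holds the hydrolase-type members XTH31 and XTH32.

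The study followed PSY5, a secreted tyrosine-sulfated peptide of the PSY group, and its receptors PSYR1, PSYR2 and PSYR3 in plants 7 days old, and its title sets growth against stress responses. The allele tpst-1 affects TPST, the enzyme that sulfates such peptides, so these plants lack the sulfated forms of their own peptides. Roots came from tpst/psyr1,2,3 quadruple mutants, from tpst-1 plants given 1 uM PSY5 and from tpst-1 plants, with 3 libraries each. Shoots came from tpst/psyr1,2,3, tpst-1 with 1 uM PSY5, tpst-1, psyr1,2,3 and wild type, with 4 libraries each. Seedlings were all tpst-1, with 3 libraries at each of 0 h, 2 h, 6 h, 24 h and 7 d. All are labelled 7 days old, so by the labels the 7 d group was on PSY5 for its whole age. It is thus not an older stage than 24 h, and values from 24 h to 7 d do not trace a course in time. The labels give 1 uM PSY5 for the groups from 2 h to 7 d, while the 0 h group, the baseline here, carries PSY5 in its title and no treatment label. Every root and seedling group thus carries tpst-1, and wild-type roots and untreated seedlings other than the 0 h group were not analysed here. The labels do not say how long roots and shoots were exposed to PSY5, nor what separates replicates, so p-values measure the spread between these libraries, which may be technical.

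Root libraries held 3.21 to 4.13 M reads (M, 1000000), shoot libraries 8.61 to 16.8 M and seedling libraries 9.88 to 15.4 M. Levels are given as TPM, the transcripts of a gene among 1000000 transcripts of a library, corrected for gene length. The spread between replicates, as a coefficient of variation fitted over all genes, came to 0.0588 for roots, 0.186 for shoots and 0.107 for seedlings. This measure leaves out read depth and the number of libraries, so alone it does not rank how well each tissue resolved a difference. TPST averaged 6.70 ± 1.59 TPM in tpst-1 shoots and 8.55 ± 0.605 TPM in wild-type shoots (SD, n = 4 each) and was not called there (edgeR adjusted p = 0.395), so its total transcript level does not check the tpst-1 label. Summed levels of 8 leaf photosynthesis markers were 18.5 to 85.1 TPM in roots and 28100 to 40300 TPM in shoots, and those of 7 root markers were 4610 to 6220 TPM in roots and 77.3 to 340 TPM in shoots, which matches the tissue labels. Replicate 4 of the tpst-1 shoots stood apart for root-type XTH genes. It had 4.51 TPM of XTH14 where the other 3 tpst-1 shoot libraries had none, and its summed level of 5 root hair markers was 3.95 TPM, against 0 to 0.513 TPM in those 3. Its 7 root markers did not stand apart, at 189 TPM, against 180 TPM in tpst-1 replicate 2 and 239 to 294 TPM in wild-type shoots. Replicate 2 of psyr1,2,3 shoots had 3.16 TPM of root hair markers. Of the XTH calls that use tpst-1 shoot replicate 4, those of XTH8 (tpst/psyr1,2,3 against tpst-1 shoots, adjusted p = 0.0611) and XTH11 (tpst-1 roots against shoots, 0.0763) were lost without it, and the others held. Replicate 1 of the tpst-1 shoots also stood apart, at 990.1 TPM summed over XTH genes, against 1385 to 1441 TPM in the others. Its 6 vascular markers summed to 124 TPM, against 201 to 209 TPM. Without replicate 1 the calls of XTH9 (tpst-1 against wild-type shoots, adjusted p = 0.109) and XTH10 (tpst-1 roots against shoots, 0.0734) were lost. So were those of XTH8 and XTH28 (tpst/psyr1,2,3 against tpst-1 shoots, 0.0739 and 0.111) and XTH30 (receptor loss, roots minus shoots, 0.0641). In whole tissues, fewer cells of a type and less RNA per cell cannot be told apart.

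Of the 33 members, 28 had enough signal to be tested in at least 1 tissue, 20 of them in roots, shoots and seedlings alike. A gene was tested where it reached 1 TPM in at least 3 root or seedling libraries or 4 shoot libraries. XTH1 (AT4G13080) and XTH2 (AT4G13090), which lie side by side on chromosome 4, had no read in any of the 44 libraries. XTH3 reached at most 0.216 TPM, XTH29 at most 0.725 TPM and XTH25 at most 1.73 TPM, and none of these 5 genes was tested. The other 28 members were each called in at least 1 of 16 comparisons, called meaning a Benjamini-Hochberg adjusted p under 0.05 over all genes tested (edgeR's quasi-likelihood test). Between tpst-1 roots and tpst-1 shoots alone 27 of the 28 were called, where 66.6% of all 22771 genes tested were. The share of all genes called in at least 1 of the 16 was not counted, so this is not a trait shown for the family.

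The makeup of the family differed between tissues. Summed over the 33 loci, transcripts made up 1780 ± 140 TPM in tpst-1 roots (SD, n = 3), 1305 ± 211 TPM in tpst-1 shoots (SD, n = 4) and 1564 ± 133 TPM in tpst-1 seedlings at 0 h (SD, n = 3). On log2(TPM + 1) the median of all genes tested was itself 0.71 higher in tpst-1 roots than in tpst-1 shoots. The larger sum in roots is thus not shown to be a trait of the family. Clade II, with many root-expressed members, gave 804.9 ± 90.7 TPM in tpst-1 roots and 366.6 ± 82 TPM in tpst-1 shoots. Clade I gave 370.5 ± 20.7 TPM in tpst-1 roots and 743.8 ± 120 TPM in tpst-1 shoots. The leading genes over all root libraries were XTH31 (AT3G44990), a hydrolase-type enzyme linked to aluminium sensitivity, at a mean of 356.6 TPM (275 to 446), followed by XTH14 (AT4G25820) at 145.4, XTH19 (AT4G30290) at 139.1, XTH4 (AT2G06850) at 111.9 and XTH18 (AT4G30280) at 90.88 TPM. XTH31 was far above the rest, while the ranges of neighbours further down that order overlap (114 to 167 TPM for XTH14 and 120 to 154 TPM for XTH19). In shoots the order was XTH4, an endoxyloglucan transferase of growing tissues also called EXGT-A1, at 291 TPM (151 to 452), XTH9 (AT4G03210) at 270.5 TPM (187 to 342), XTH27 (AT2G01850), known from leaf veins, at 124, XTH7 (AT4G37800) at 107.3 and XTH24 (AT4G30270) at 93.46 TPM. Seedlings were led by XTH31 at 284.2, XTH4 at 196.5, XTH7 at 146.1, XTH24, also called MERI5, at 138.7, and XTH9 at 135.8 TPM.

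**Figure D1:**
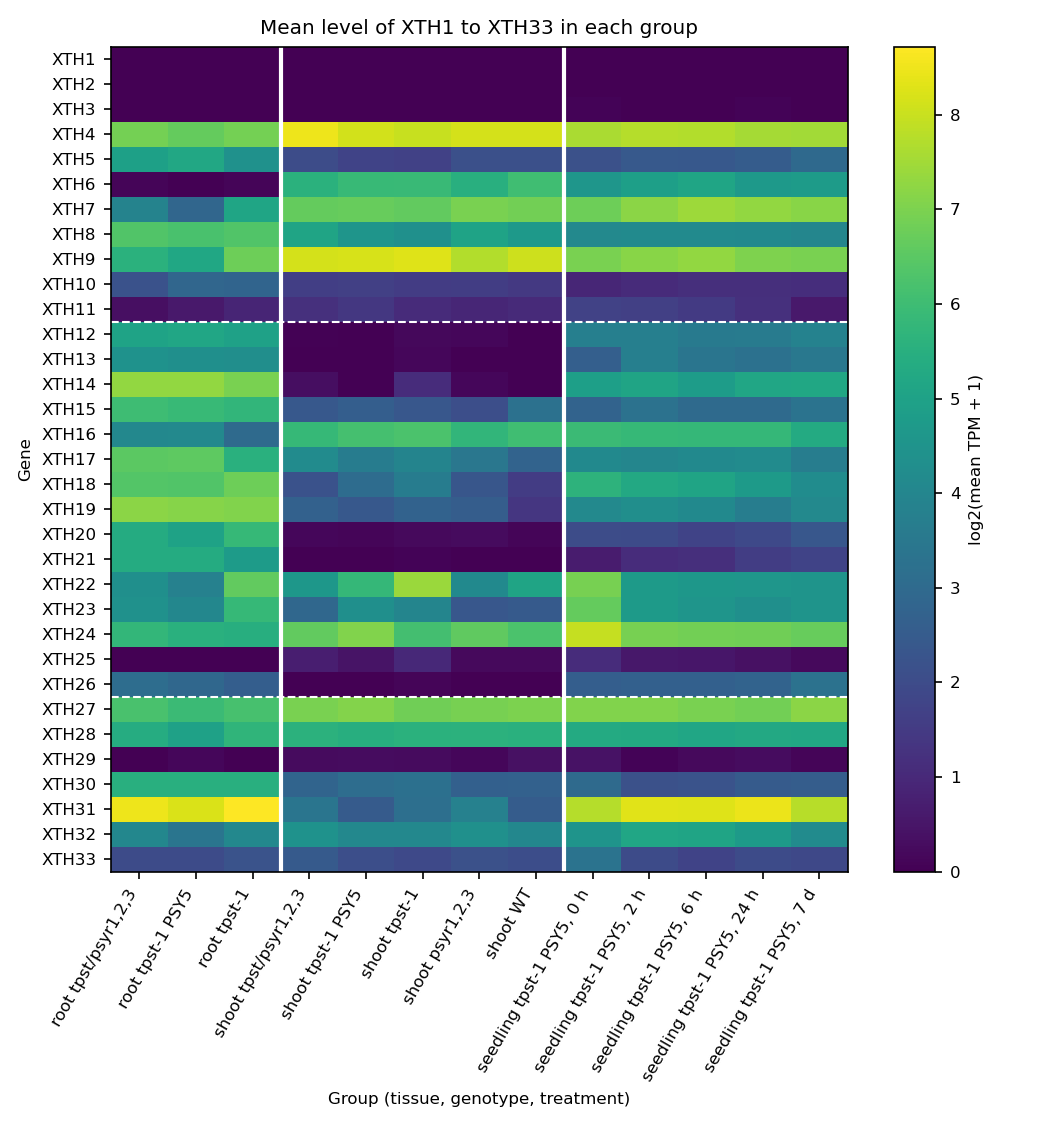
Mean level of each of the 33 genes (rows) in each of the 13 groups (columns), as log2(mean TPM + 1), with root, shoot and seedling groups parted by solid lines and clades I, II and III by dashed lines. XTH31 is among the brightest rows in roots and seedlings and XTH4 and XTH9 in shoots, while XTH12, XTH13, XTH20, XTH21 and XTH26 are near 0 in shoots.

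Set against tpst-1 shoots, tpst-1 roots differed in 27 of the 28 members tested, 16 higher and 11 lower. Calls were common here, since 66.6% of all 22771 genes tested were called, 31.6% higher and 35% lower, and the members' median log2 difference was 1.01 against -0.07 for all genes. XTH6 was close to absent from tpst-1 roots. It had 0.259, 0 and 0 TPM in tpst-1 roots, against 38.2, 83.2, 56.5 and 55.9 TPM in tpst-1 shoots. XTH21, needed for normal root growth, had 32, 23.3 and 24 TPM in tpst-1 roots, against 0, 0, 0 and 0.263 TPM in tpst-1 shoots. XTH12, XTH13 and XTH26 had the same form, with every shoot read of the tpst-1 group in replicate 4. XTH20, one of the root group XTH17 to XTH20, averaged 56.08 ± 1.62 TPM in tpst-1 roots and 0.164 ± 0.327 TPM in tpst-1 shoots, and XTH14 124 ± 13.4 TPM in tpst-1 roots and 1.13 ± 2.26 TPM in tpst-1 shoots. Genes present in both organs differed too. Fold changes below are from edgeR and relative to the bulk of genes, so they are not the ratios of the TPM means beside them. The median of all genes was 0.71 higher in tpst-1 roots on log2(TPM + 1), against -0.07 by edgeR. XTH31 was 25.4-fold higher in tpst-1 roots (419.2 TPM, against 8.07 TPM in tpst-1 shoots; log2 fold change 4.67 ± 0.39, SE; adjusted p = 1.89e-11), and XTH16 was 19.8-fold lower (7.08 TPM in tpst-1 roots, against 74.79 TPM in tpst-1 shoots; log2 fold change -4.31 ± 0.22, SE; adjusted p = 1.93e-16). XTH19, of the root group, was 12.8-fold higher in tpst-1 roots (134.2 TPM, against 5.73 TPM in tpst-1 shoots; 3.68 ± 0.25; adjusted p = 1.03e-13). XTH18 was 5.40-fold higher in tpst-1 roots (log2 fold change 2.43 ± 0.36, SE; adjusted p = 9.42e-07), and without shoot replicate 4 the log2 fold changes were 3.24 for XTH18, 4.10 for XTH19, 4.67 for XTH31 and -4.34 for XTH16. XTH22 was abundant in both organs, with 89.8, 63.1 and 139 TPM in tpst-1 roots and 126, 148, 230 and 177 TPM in tpst-1 shoots (-1.69 ± 0.32; adjusted p = 4.22e-05; -1.72 without shoot replicate 4). The directions for XTH28 and XTH32, called lower in roots at -0.83 and -0.91 (-0.92 and -0.98 without shoot replicate 4), turned to 0.12 and 0.01 with limma on log2(TPM + 1), a scale on which the median of all genes was itself 0.71 higher in tpst-1 roots. XTH10 and XTH11 were called only narrowly (adjusted p = 0.0438 and 0.0464), were not called by DESeq2 (0.0504 and 0.0803) and were lost in 5 and 6 of the 7 fits that leave out 1 library. Library kits and instruments are not tied to samples in the labels, so any such difference between root and shoot libraries and the organ itself cannot be told apart.

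The touch gene XTH22 and its close relative XTH23 were lower both in tpst/psyr1,2,3 roots and in tpst-1 roots given PSY5 than in tpst-1 roots, and so were XTH7 and XTH9. XTH5, XTH14, XTH16, XTH17 and XTH21 were higher in both. In tpst-1 roots with PSY5, against tpst-1 roots without it, 15 of 26 tested members were called, 5 higher and 10 lower. Over all 19958 genes tested 15.2% were called, 7.52% higher and 7.69% lower. In tpst/psyr1,2,3 roots, against tpst-1 roots, 13 members were called, 5 higher and 8 lower, where 15.4% of all genes were called, 7.9% higher and 7.49% lower. The members' median log2 fold change was -0.03 in both comparisons and that of all genes 0.00. Both comparisons use the same 3 tpst-1 libraries, so their values stand side by side below and are not independent of each other.

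XTH22 (AT5G57560) had 17.5, 28.3 and 12 TPM in tpst/psyr1,2,3 roots, 22.1, 11.8 and 6.14 TPM with PSY5 in tpst-1 roots, and 89.8, 63.1 and 139 TPM in tpst-1 roots. All 6 libraries of the first 2 groups lay below all 3 tpst-1 libraries. The gene was 5.10-fold lower in tpst/psyr1,2,3 roots (log2 fold change -2.35 ± 0.28, SE; adjusted p = 1.78e-06) and 7.36-fold lower in tpst-1 roots given PSY5 (-2.88 ± 0.29; adjusted p = 1.91e-07), each against tpst-1 roots. XTH23 (AT4G25810) had 17.9, 19.1 and 24.3 TPM in tpst/psyr1,2,3 roots, 15.1, 17.2 and 14.1 TPM with PSY5 in tpst-1 roots, and 53.8, 34.6 and 80.6 TPM in tpst-1 roots. Again the tpst-1 libraries lay above all others without overlap. XTH23 was 2.84-fold lower in tpst/psyr1,2,3 roots (-1.51 ± 0.21; adjusted p = 1.28e-05) and 3.57-fold lower with PSY5 (-1.84 ± 0.21; adjusted p = 1.12e-06). Replicate 3 of the tpst-1 roots held the highest level of both genes. Without it the log2 fold changes were -2.0 and -1.16 for XTH22 and XTH23 in tpst/psyr1,2,3 roots and -2.53 and -1.49 with PSY5, all still called.

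**Figure D2:**
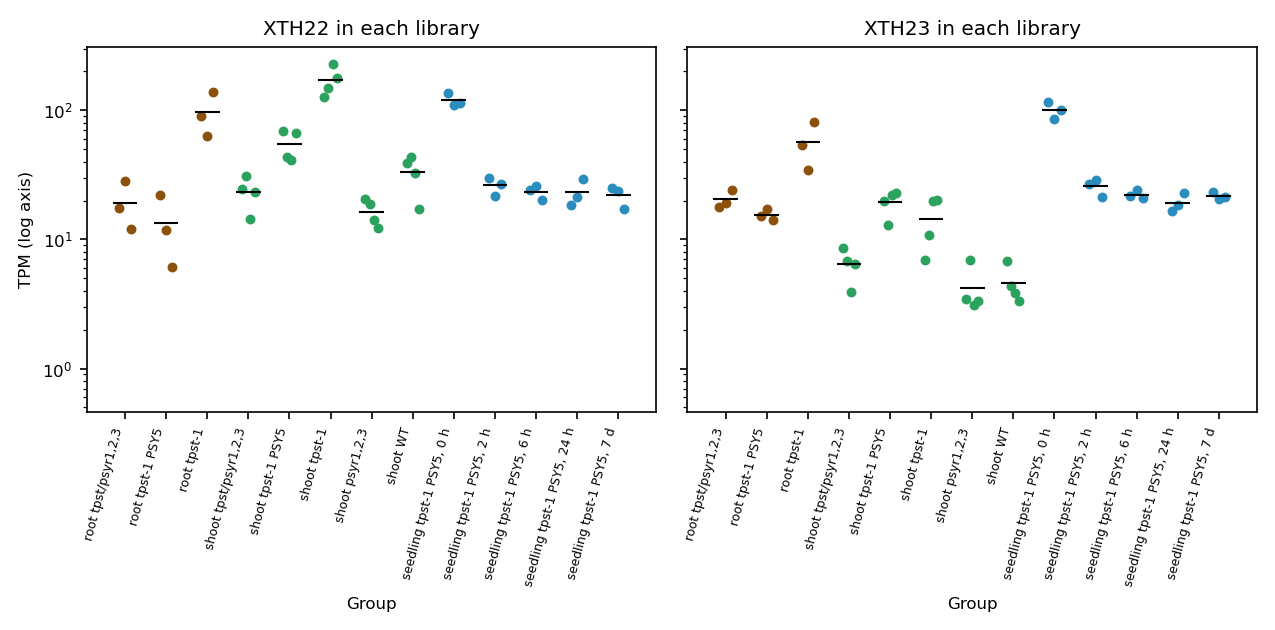
TPM of XTH22 (left) and XTH23 (right) on a log axis in each of the 44 libraries (dots), with the group mean as a bar, for roots (brown), shoots (green) and seedlings (blue). The 3 tpst-1 root libraries and the 3 seedling libraries at 0 h stand above the other groups of their tissue for both genes, and the tpst-1 shoots do so for XTH22 alone.

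XTH22 and XTH23 have 82.4% identical coding bases, share no stretch of 31 bases and lie on chromosomes 5 and 4, so reads of one are not easily counted for the other. The 250 bases before each transcript start are printed because these 2 genes moved together in roots and seedlings. They are followed by those of XTH7 and XTH18, the members with the next most comparisons called (9 each, against 12 for XTH22 and 11 for XTH23). Sequences are from RefSeq's TAIR10.1, written 5′ to 3′ on the strand of the gene, with capitals at matches to CGCG, the core of sites bound by calmodulin-binding CAMTA factors, or TTGAC, the core of the W-box bound by WRKY factors, on either strand. They span chr5:23308681-23308930 (minus strand) for XTH22, chr4:13128144-13128393 (plus) for XTH23, chr4:17777446-17777695 (minus) for XTH7 and chr4:14827212-14827461 (minus) for XTH18.
XTH22: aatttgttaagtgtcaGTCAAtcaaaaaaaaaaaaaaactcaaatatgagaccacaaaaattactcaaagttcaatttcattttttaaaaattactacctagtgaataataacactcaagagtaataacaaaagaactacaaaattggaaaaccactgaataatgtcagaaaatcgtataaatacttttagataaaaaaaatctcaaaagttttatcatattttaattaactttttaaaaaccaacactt
XTH23: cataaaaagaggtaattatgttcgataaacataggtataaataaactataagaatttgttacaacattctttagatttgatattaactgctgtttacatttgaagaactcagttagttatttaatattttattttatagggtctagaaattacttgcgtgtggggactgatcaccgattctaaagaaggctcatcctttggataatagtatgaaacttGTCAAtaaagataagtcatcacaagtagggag
XTH7: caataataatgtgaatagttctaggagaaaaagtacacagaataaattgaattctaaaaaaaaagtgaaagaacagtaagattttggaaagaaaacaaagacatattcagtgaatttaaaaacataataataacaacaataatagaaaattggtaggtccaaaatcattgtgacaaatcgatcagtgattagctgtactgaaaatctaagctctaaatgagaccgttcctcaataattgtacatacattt
XTH18: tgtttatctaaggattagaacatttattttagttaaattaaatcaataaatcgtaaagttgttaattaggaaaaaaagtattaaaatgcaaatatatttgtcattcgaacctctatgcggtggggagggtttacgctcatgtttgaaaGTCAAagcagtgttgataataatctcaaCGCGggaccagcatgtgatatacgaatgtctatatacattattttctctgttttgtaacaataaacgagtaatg
TTGAC was found in the windows of XTH22, XTH23 and XTH18, each time on the other strand, where it reads GTCAA. It occurs in 44.9% of the 27443 windows of that size taken for all genes and in 15 of the 33 members, so holding it is common. CGCG was found in the XTH18 window and in 3 of the 33 members, against 10.1% of all windows. The G-box CACGTG was found in no member (6.49% of all windows) and the auxin response element TGTCTC in 2 members (10.9% of all windows). XTH7 held none of the 4 motifs. The letters of motifs do not overlap each other in these windows, and a match says nothing about whether a factor binds.

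XTH7 and XTH9 fell as well, and XTH7 was also called between tpst/psyr1,2,3 roots and tpst-1 roots given PSY5. XTH7 had 12.1, 15.2 and 14.6 TPM in tpst/psyr1,2,3 roots, 6.56, 5.29 and 6.98 TPM with PSY5 in tpst-1 roots, and 30.5, 35.1 and 35.8 TPM in tpst-1 roots. The 3 groups form 3 levels that do not overlap. Against tpst-1 roots XTH7 was 2.48-fold lower in tpst/psyr1,2,3 (-1.31 ± 0.14; adjusted p = 5.28e-07) and 5.21-fold lower with PSY5 (-2.38 ± 0.16; adjusted p = 3.39e-10). XTH7 was 2.1-fold higher in tpst/psyr1,2,3 roots than in tpst-1 roots given PSY5 (1.07 ± 0.19; adjusted p = 0.00641), and edgeR called no other of the 26 tested members between these groups, where 0.536% of all genes were, 0.316% higher and 0.22% lower. DESeq2 gave XTH7 a log2 fold change of 1.08 and no adjusted p there, and called XTH31 (0.21; adjusted p = 0.0465). The call was lost without replicate 2 of the tpst-1 roots given PSY5 (adjusted p = 0.0666) or without replicate 2 of tpst/psyr1,2,3 (0.061). XTH9, described in internode elongation, had 49.8, 44.7 and 43.1 TPM in tpst/psyr1,2,3 roots, 33.4, 36.1 and 38.3 TPM with PSY5 in tpst-1 roots, and 89, 107 and 136 TPM in tpst-1 roots. Its tpst-1 libraries were again the highest without overlap, and it was 2.5-fold lower in tpst/psyr1,2,3 roots (-1.32 ± 0.13; adjusted p = 7.91e-08) and 3.04-fold lower with PSY5 (-1.60 ± 0.13; adjusted p = 5.29e-09).

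The 5 members higher in roots differed in level and in size of change, from XTH16 down to XTH14, which was 1.21-fold higher in tpst/psyr1,2,3 and 1.29-fold higher with PSY5. XTH17 (AT1G65310) had 102, 79.6 and 92.3 TPM in tpst/psyr1,2,3 roots, 108, 101 and 71.6 TPM with PSY5 in tpst-1 roots, and 51.3, 48.3 and 37.5 TPM in tpst-1 roots. All tpst-1 libraries were below the other 6, with a fold change of 1.96 in tpst/psyr1,2,3 (0.97 ± 0.14; adjusted p = 3.26e-05) and 2.08 with PSY5 (1.06 ± 0.14; adjusted p = 8.75e-06). XTH16 (AT3G23730) had 18.9, 10.8 and 17.9 TPM in tpst/psyr1,2,3 roots, 19, 11.8 and 17.3 TPM with PSY5 in tpst-1 roots, and 5.22, 9.71 and 6.29 TPM in tpst-1 roots. Replicate 2 came closest between the groups, and the rise was 2.23-fold in tpst/psyr1,2,3 (adjusted p = 0.00363) and 2.33-fold with PSY5 (adjusted p = 0.00179). XTH5 (AT5G13870) had 31.4, 29.8 and 29.7 TPM in tpst/psyr1,2,3 roots, 36, 35.4 and 38.2 TPM with PSY5 in tpst-1 roots, and 21.7, 21.8 and 17.1 TPM in tpst-1 roots. It was 1.47-fold higher in tpst/psyr1,2,3 (adjusted p = 0.00169) and 1.86-fold higher with PSY5 (adjusted p = 3.07e-06). Among the lower members, XTH20 averaged 40.18 ± 5 TPM in tpst/psyr1,2,3 roots, 31.22 ± 2.16 TPM with PSY5 and 56.08 ± 1.62 TPM in tpst-1 roots, and XTH28, known for growth of stamen filaments, averaged 41.08, 30.84 and 50.55 TPM in the same order (n = 3 each). The hydrolase-type XTH32 was 1.57-fold lower with PSY5 (9.79, 11.2 and 7.73 TPM, against 17.2, 14 and 16.1 TPM in tpst-1 roots; adjusted p = 0.0252), and in tpst/psyr1,2,3 roots it had 14.2, 20.4 and 11.8 TPM and was not called (adjusted p = 0.628).

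**Figure D3:**
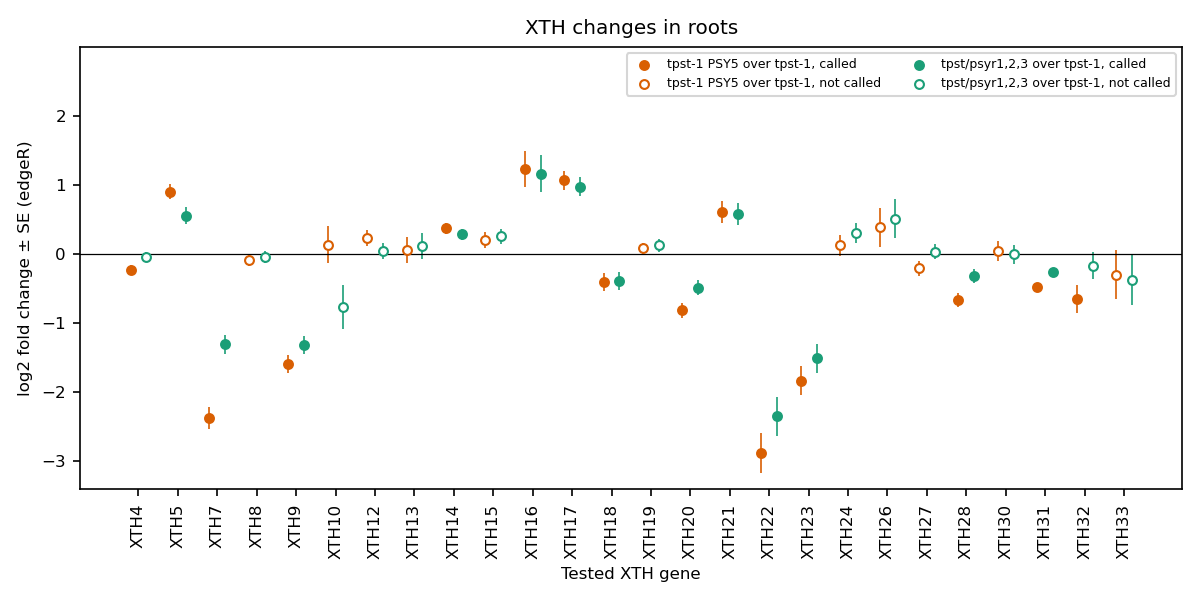
Log2 fold change ± SE (edgeR) of the 26 XTH genes tested in roots, for tpst-1 with PSY5 over tpst-1 (orange) and tpst/psyr1,2,3 over tpst-1 (green), which share the tpst-1 libraries; filled dots are called at adjusted p under 0.05 and open dots are not. The lowest called values belong to XTH22, XTH7, XTH23 and XTH9, and the highest to XTH16 and XTH17.

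XTH17 and XTH18 moved in opposite directions in roots although they are the most alike pair of the family, with 92.2% of coding bases identical and a median of 64.8% over all 528 pairs. XTH18 was chosen for this after its values were seen. It had 98.1, 76.9 and 75.3 TPM in tpst/psyr1,2,3 roots, 100, 74.3 and 66.5 TPM with PSY5 in tpst-1 roots, and 120, 87.7 and 119 TPM in tpst-1 roots. The groups overlap at replicate 1 of each first group and replicate 2 of tpst-1, and the call was narrow at log2 fold changes of -0.40 in tpst/psyr1,2,3 (adjusted p = 0.0372) and -0.41 with PSY5 (adjusted p = 0.0315). DESeq2 did not call it (adjusted p = 0.262 and 0.272). The longest identical coding stretch of the pair is 47 bases, at chr1:24257460-24257506 (plus strand, 1 exon) in XTH17 and chr4:14826754-14826800 (minus strand, 1 exon) in XTH18 of TAIR10.1, and is printed because a read inside it could be counted for either gene.
XTH17 and XTH18: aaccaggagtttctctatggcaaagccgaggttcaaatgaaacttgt
Stretches of 31 bases or more are shared by 6 of the 528 pairs, which involve XTH12 with XTH13 and the group XTH17 to XTH20 only. Values of these 6 genes are less certain than those of the others, as no source used here names the counting program.

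Of 18 genes for xyloglucan synthesis and trimming, all tested in roots, 2 were called in tpst/psyr1,2,3 roots, 1 higher and 1 lower, which is 11.1% beside 15.4% of all genes. With PSY5 1 was called, lower, which is 5.56% beside 15.2% of all genes, and 5 had an unadjusted p under 0.05 in each comparison. XXT1, a xylosyltransferase that adds side chains to the glucan backbone, averaged 18.87 TPM in tpst/psyr1,2,3 roots, 15.5 TPM with PSY5 and 49.29 TPM in tpst-1 roots, with log2 fold changes of -1.45 ± 0.22 (adjusted p = 5.97e-05) and -1.65 ± 0.23 (adjusted p = 1.25e-05). XYL1, an alpha-xylosidase, was called in tpst/psyr1,2,3 roots alone of these comparisons, at 85.24 TPM against 73.22 TPM in tpst-1 roots (0.19 ± 0.06; adjusted p = 0.04). Summed levels of 5 root hair markers moved with the groups, at 153 to 177 TPM in tpst/psyr1,2,3 roots, 156 to 174 TPM with PSY5 and 112 to 135 TPM in tpst-1 roots. Of these 5, 3 were called in each comparison, all higher. The 7 root tissue markers summed to 5750 to 6220, 4610 to 5060 and 4650 to 5280 TPM in that order. Their directions were split, with 5 called higher and 2 lower in tpst/psyr1,2,3, and 4 higher and 2 lower with PSY5. The 6 vascular markers summed to 250 to 255 TPM in tpst/psyr1,2,3 roots, 214 to 218 TPM with PSY5 and 194 to 228 TPM in tpst-1 roots. Of them 3 were called in tpst/psyr1,2,3, all higher, and 0 with PSY5. The part of all these markers in the XTH results was not tested. Calls of XTH4, XTH18 and XTH32 with PSY5 were lost with DESeq2 (adjusted p = 0.114, 0.272 and 0.13), and so were those of XTH14, XTH18 and XTH28 in tpst/psyr1,2,3 (0.064, 0.262 and 0.171). Without 1 library or another the calls of XTH4, XTH18, XTH21 and XTH32 with PSY5 were lost (adjusted p up to 0.189), as were those of XTH14, XTH18, XTH21 and XTH28 in tpst/psyr1,2,3 (up to 0.162), each with replicate 3 of tpst-1 among those libraries except XTH21 with PSY5, which was lost without PSY5 replicate 2 alone (0.0754).

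XTH22, XTH23 and the root-group genes XTH17, XTH18 and XTH19 were higher in tpst-1 shoots than in wild-type shoots. In tpst-1 shoots, against wild-type shoots, 8 of 22 tested members were called, 7 higher and 1 lower, where 9.21% of all 20723 genes were called, 7.07% higher and 2.14% lower. The members' median log2 fold change was 0.25 and that of all genes 0.01. XTH22 had 126, 148, 230 and 177 TPM in tpst-1 shoots, against 39, 43.5, 32.5 and 17.3 TPM in wild-type shoots. The groups are far apart, at a 5.73-fold difference (2.52 ± 0.26; adjusted p = 8.2e-07). XTH23 had 6.95, 10.9, 19.9 and 20.2 TPM in tpst-1 shoots, against 6.75, 4.33, 3.82 and 3.34 TPM in wild-type shoots. The lowest tpst-1 library barely cleared the highest wild-type one, and the gene was 3.32-fold higher (1.73 ± 0.28; adjusted p = 0.00029). XTH17 had 8.22, 17.8, 16.3 and 14.7 TPM in tpst-1 shoots, against 6.28, 6.54, 7.39 and 3.48 TPM in wild-type shoots, 2.59-fold higher without overlap (1.37 ± 0.23; adjusted p = 0.000363).

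The root-type XTH18 and XTH19 rose in tpst-1 shoots by an amount that depended on replicate 4. XTH18 had 3.76, 5.73, 9.15 and 27.8 TPM in tpst-1 shoots, against 1.97, 1.72, 1.76 and 2.25 TPM in wild-type shoots. No tpst-1 library was as low as any wild-type one, and the 6.36-fold rise (2.67 ± 0.47; adjusted p = 0.00061) became 1.87 on the log2 scale without replicate 4 (adjusted p = 0.00203). XTH19 had 2.95, 5.06, 4.35 and 10.6 TPM in tpst-1 shoots, against 2.1, 1.03, 0.969 and 2.25 TPM in wild-type shoots. Its log2 fold change was 1.99 ± 0.35 (adjusted p = 0.000653), or 1.58 without replicate 4 (adjusted p = 0.003). The 7 root markers summed to 77.3 to 189 TPM in tpst-1 shoots and 239 to 294 TPM in wild-type shoots, and the 5 root hair markers to 0 to 3.95 TPM in tpst-1 shoots, highest in replicate 4, and 0.263 to 0.607 TPM in wild-type shoots. Their part in these results was not tested. XTH15, also called XTR7 and known from shade responses, was the 1 member lower in tpst-1 shoots, with 3.1, 4.89, 2.78 and 5.81 TPM, against 7.36, 8.85, 8.4 and 9.29 TPM in wild-type shoots (-0.90 ± 0.19; adjusted p = 0.00269). XTH30 was higher at 8.24 TPM, against 5.59 TPM in wild-type shoots (adjusted p = 0.0112, but 0.089 with limma on log2(TPM + 1)). XTH9 was 1.35-fold higher (adjusted p = 0.0387), and its call was lost without wild-type replicate 1, 3 or 4 or tpst-1 replicate 1 or 3 (adjusted p = 0.0568 to 0.14). Without tpst-1 replicate 4 the log2 fold changes were 2.55 for XTH22, 1.60 for XTH23, 1.41 for XTH17, 0.74 for XTH30, 0.52 for XTH9 and -1.0 for XTH15, all still called.

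In psyr1,2,3 shoots, which have TPST, XTH22 and XTH15 were lower than in wild type. In psyr1,2,3 shoots, against wild-type shoots, 5 of 22 members were called, 1 higher and 4 lower, where 1.82% of all genes were called, 0.893% higher and 0.927% lower. The members' median log2 fold change was -0.14 and that of all genes 0.01. XTH22 had 20.5, 18.8, 14.2 and 12.2 TPM in psyr1,2,3 shoots, against 39, 43.5, 32.5 and 17.3 TPM in wild-type shoots. Wild-type replicate 4 lay within the psyr1,2,3 range, and the gene was 2.30-fold lower (-1.20 ± 0.26; adjusted p = 0.0166). XTH15 was 2.87-fold lower at 3.61, 3, 3.72 and 2.87 TPM in psyr1,2,3 shoots, against 7.36, 8.85, 8.4 and 9.29 TPM in wild-type shoots (-1.52 ± 0.20; adjusted p = 0.000164), with no overlap. XTH19 rose 2.76-fold (4.98 TPM in psyr1,2,3 and 1.59 TPM in wild type; adjusted p = 0.0386), while XTH6 and XTH16 fell by 0.74 and 0.51 on the log2 scale (adjusted p = 0.0198 and 0.0461). Of these 5 calls XTH15 held with each library left out. The others did not, with 1 call in all without wild-type replicate 1 or 2 or psyr1,2,3 replicate 4, and 2 without psyr1,2,3 replicate 2 or 3. Root hair markers summed to 0.601 to 3.16 TPM in psyr1,2,3 shoots and 0.263 to 0.607 TPM in wild-type shoots. Vascular markers summed to 197 to 221 TPM and 154 to 196 TPM, and root markers to 227 to 340 TPM and 239 to 294 TPM, in that order. Their part in these results was not tested.

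Against tpst-1 shoots, XTH22 was the 1 member called in tpst-1 shoots given PSY5, and it was lower. In tpst/psyr1,2,3 shoots XTH22 was lower still, and 8 other members were called. With PSY5, 1 of 22 members was called, where 5.15% of all genes were, 1.32% higher and 3.84% lower. The count was 4 without tpst-1 replicate 4 (XTH9, XTH24 and XTH28 added) and 2 without tpst-1 replicate 2 or 3. In tpst/psyr1,2,3 shoots, against tpst-1 shoots, 9 members were called, 1 higher and 8 lower, where 14.9% of all genes were called, 5.18% higher and 9.76% lower. The members' median log2 fold change was -0.31 in tpst/psyr1,2,3 and -0.22 with PSY5, and -0.01 for all genes in both comparisons, which share the tpst-1 libraries. XTH22 had 24.7, 30.8, 14.5 and 23.5 TPM in tpst/psyr1,2,3 shoots, 68.6, 43.5, 41.5 and 66.5 TPM in tpst-1 shoots given PSY5, and 126, 148, 230 and 177 TPM in tpst-1 shoots. These are 3 levels without overlap. XTH22 was 9.54-fold lower in tpst/psyr1,2,3 (-3.25 ± 0.27; adjusted p = 3.28e-08) and 3.68-fold lower with PSY5 (-1.88 ± 0.25; adjusted p = 4.3e-05), each against tpst-1 shoots, and 2.60-fold lower in tpst/psyr1,2,3 than in tpst-1 shoots given PSY5 (-1.38 ± 0.25; adjusted p = 0.00684). Without tpst-1 replicate 4 its values against tpst-1 were -3.29 in tpst/psyr1,2,3 and -1.91 with PSY5.

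XTH23 parted from XTH22 in shoots. It had 8.59, 6.78, 3.93 and 6.47 TPM in tpst/psyr1,2,3 shoots, 20, 13, 22 and 22.7 TPM in tpst-1 shoots given PSY5, and 6.95, 10.9, 19.9 and 20.2 TPM in tpst-1 shoots. With PSY5 its libraries overlapped those of tpst-1 and it was not called (0.26 ± 0.26; adjusted p = 0.597), whereas in tpst/psyr1,2,3 it was 2.79-fold lower than in tpst-1 (-1.48 ± 0.28; adjusted p = 0.00099) and 3.33-fold lower than with PSY5 (-1.74 ± 0.28; adjusted p = 0.00185). XTH22 and XTH23 were the 2 members called between tpst/psyr1,2,3 and tpst-1 shoots given PSY5, where 1.28% of all genes were called, 0.372% higher and 0.907% lower. XTH18 had 4.15, 2.43, 1.3 and 6.49 TPM in tpst/psyr1,2,3 shoots, against 3.76, 5.73, 9.15 and 27.8 TPM in tpst-1 shoots. The groups overlap, and the log2 fold change of -1.98 ± 0.45 (adjusted p = 0.00429) became -1.19 without replicate 4 of tpst-1 (adjusted p = 0.0286). XTH16 had 57.5, 59.5, 48.6 and 57.8 TPM in tpst/psyr1,2,3 shoots, against 65.5, 81.3, 71.9 and 80.4 TPM in tpst-1 shoots, lower without overlap (-0.83 ± 0.13; adjusted p = 0.000159). Without tpst-1 replicate 4, XTH23 stood at -1.35 and XTH16 at -0.86 in tpst/psyr1,2,3, both still called.

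The remaining called members in tpst/psyr1,2,3 shoots were XTH6 (-0.69), XTH9 (-0.54), XTH28 (-0.42) and XTH30 (-0.84), all lower, and XTH8 (0.45), which was higher, on the log2 scale against tpst-1 shoots. Without tpst-1 replicate 4 the values were -0.76, -0.63, -0.51, -0.87 and 0.43 in that order. XTH28 had close TPM means, 47.05 in tpst/psyr1,2,3 and 46.54 in tpst-1 shoots, and its value turned to 0.01 with limma on log2(TPM + 1). Its call was also lost without tpst-1 replicate 1 or tpst/psyr1,2,3 replicate 1, 2 or 3 (adjusted p = 0.0807 to 0.111). On that scale the median of all genes was 0.33 higher in tpst/psyr1,2,3 than in tpst-1 shoots and 0.21 higher with PSY5, so shoot fold changes are to be read relative to the bulk of genes. The calls of XTH6, XTH9 and XTH30 were lost on the TPM scale as well (adjusted p = 0.259, 0.277 and 0.0658). That of XTH8 was lost without tpst-1 replicate 1 or 4 or tpst/psyr1,2,3 replicate 2 or 4 (adjusted p = 0.0611 to 0.101). Photosynthesis markers also moved, at 29200 to 32400 TPM in tpst/psyr1,2,3, 28100 to 31800 TPM with PSY5 and 33900 to 36300 TPM in tpst-1 shoots. The 6 vascular markers summed to 230 to 283 TPM in tpst/psyr1,2,3, 221 to 247 TPM with PSY5 and 124 to 209 TPM in tpst-1 shoots, and the 7 root markers to 194 to 260 TPM, 91.4 to 161 TPM and 77.3 to 189 TPM in the same order of groups. The part of these markers was not tested.

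**Figure D4:**
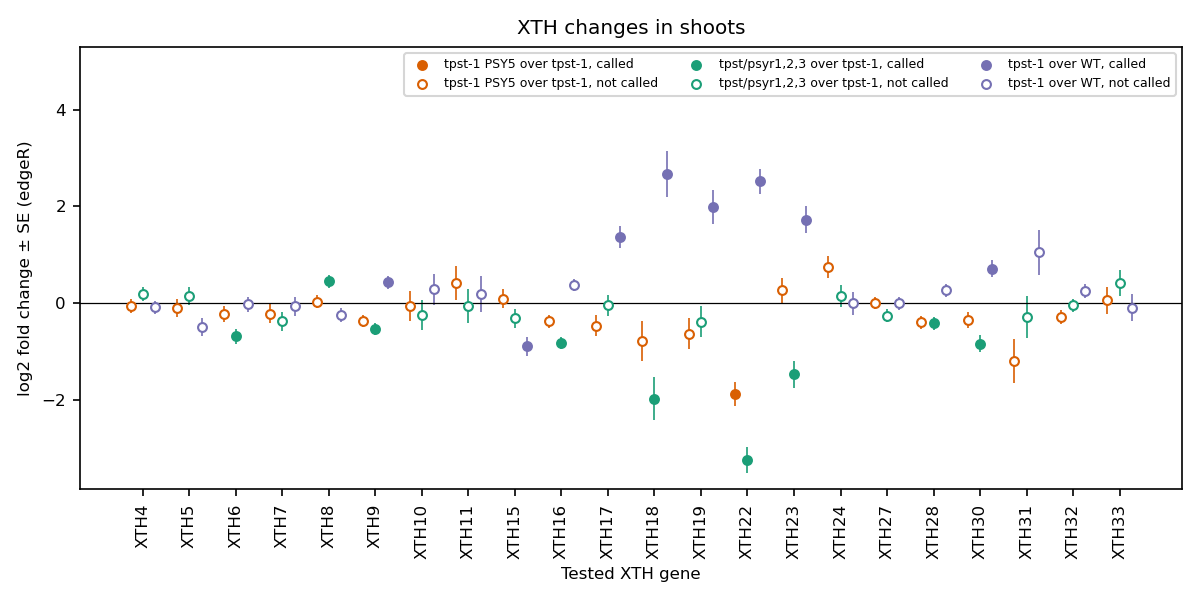
Log2 fold change ± SE (edgeR) of the 22 XTH genes tested in shoots, for tpst-1 with PSY5 over tpst-1 (orange), tpst/psyr1,2,3 over tpst-1 (green) and tpst-1 over wild type (violet); filled dots are called at adjusted p under 0.05, and all 3 comparisons use the tpst-1 libraries. XTH22 is the lowest called gene in both comparisons against tpst-1, and XTH18 and XTH22 are the highest over wild type.

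In the xyloglucan list, XXT1 was called in 3 of the shoot comparisons. It averaged 15.01 TPM in tpst/psyr1,2,3, 14.99 TPM in tpst-1 given PSY5, 22.17 TPM in tpst-1 and 13.94 TPM in wild-type shoots. Against tpst-1 it was lower in tpst/psyr1,2,3 (-0.93 ± 0.16; adjusted p = 0.000381) and with PSY5 (-0.79 ± 0.16; adjusted p = 0.00418), and tpst-1 exceeded wild type (0.80 ± 0.16; adjusted p = 0.00183). Of the 18 genes, 4 were called in tpst/psyr1,2,3 against tpst-1, 2 higher and 2 lower (22.2%, beside 14.9% of all genes), and 1 with PSY5, lower (5.56%, beside 5.15%). In tpst-1 against wild type 3 were called, 2 higher and 1 lower (16.7%, beside 9.21%), and in tpst/psyr1,2,3 against PSY5 1 was called, higher, namely XYL1 at 0.47 (5.56%, beside 1.28%). In psyr1,2,3 against wild type edgeR called 0, beside 1.82% of all genes, and 2 had an unadjusted p under 0.05. The other called genes were XYL1 (0.58), the beta-galactosidase gene BGAL10 (0.83) and the glucan synthase gene CSLC12 (-1.14) in tpst/psyr1,2,3, and XXT5 (0.43) and BGAL10 (-0.56) in tpst-1 against wild type.

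The response to PSY5 differed between roots and shoots of tpst-1 for 6 members, tested as the root effect minus the shoot effect in 1 fit. There 3.4% of all 22771 genes were called, 2.16% higher and 1.25% lower. XTH16, XTH17 and XTH5 responded more positively in roots, by 1.63 ± 0.29, 1.56 ± 0.30 and 1.02 ± 0.22 on the log2 scale (adjusted p = 0.00141, 0.00281 and 0.00716). XTH7, XTH23 and XTH9 responded more negatively in roots, by -2.15 ± 0.32, -2.07 ± 0.41 and -1.21 ± 0.21 (adjusted p = 0.000175, 0.0036 and 0.000824). For XTH7 the levels behind this were 6.56, 5.29 and 6.98 TPM with PSY5 and 30.5, 35.1 and 35.8 TPM without it in tpst-1 roots, but 132, 80.7, 96.2 and 96.1 TPM with PSY5 and 92.7, 127, 83.2 and 86.2 TPM without it in tpst-1 shoots. XTH22 fell in both organs and was not among the 6. For loss of the receptors the difference was called for XTH16 (2.00 ± 0.30; adjusted p = 8.97e-05), XTH17 (1.04 ± 0.30; 0.0397), XTH30 (0.84 ± 0.25; 0.0486) and XTH9 (-0.76 ± 0.21; 0.0283), where 5.3% of all genes were called, 3.61% higher and 1.7% lower. Of these 4, the XTH16 difference held with each library left out in turn. Only XTH16 was called without root tpst/psyr1,2,3 replicate 3, and the calls of XTH9, XTH17 and XTH30 were lost in 4, 9 and 9 of the 14 fits that leave out a library. Without tpst-1 shoot replicate 4 all 10 differences were called, at 1.66, 1.59, 1.15, -2.03, -2.20 and -1.12 for PSY5 (XTH16, XTH17, XTH5, XTH7, XTH23 and XTH9) and 2.03, 1.08, 0.87 and -0.67 for receptor loss (XTH16, XTH17, XTH30 and XTH9). Without tpst-1 shoot replicate 1 the XTH30 difference for receptor loss was not called (0.76, adjusted p = 0.0641), and the others were.

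In tpst-1 seedlings given PSY5, XTH22, XTH23 and XTH24 were lower than at 0 h in every group from 2 h to 7 d. XTH7 and XTH13 were higher in every such group, and XTH31 from 2 h to 24 h. Against 0 h, 11 of 28 tested members were called at 2 h (5 higher, 6 lower), 12 at 6 h (6 and 6), 11 at 24 h (4 and 7) and 15 at 7 d (6 and 9). All 4 comparisons share the 0 h libraries, and from 2 h to 7 d 12.5%, 14.5%, 14.1% and 19.4% of all 21069 genes were called in them. Of all genes 4.53%, 5.89%, 5.43% and 8.53% were higher and 8.01%, 8.56%, 8.63% and 10.8% lower, in the same order of times. The members' median log2 fold change lay between -0.04 and 0.01, and that of all genes at 0.00 to 0.01. Untreated seedlings other than the 0 h group were not analysed here, so PSY5 and elapsed time or handling cannot be told apart.

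The touch gene XTH22 had 137, 109 and 113 TPM at 0 h, 29.7, 21.8 and 27.1 TPM at 2 h, 24.3, 25.7 and 20.2 TPM at 6 h, 18.4, 21.4 and 29.6 TPM at 24 h and 25.1, 23.8 and 17.3 TPM at 7 d. It was 4.72-fold below 0 h at 2 h (-2.24 ± 0.15; adjusted p = 4.89e-10) and 5.50-fold below at 7 d (-2.46 ± 0.15; adjusted p = 2.67e-10). XTH23 had 115, 85.5 and 101 TPM at 0 h, 27.1, 28.8 and 21.4 TPM at 2 h, 21.6, 24 and 21 TPM at 6 h, 16.7, 18.4 and 22.8 TPM at 24 h and 23.5, 20.5 and 21.4 TPM at 7 d. No library of the other seedling groups came near those at 0 h, and XTH23 was 4.04-fold lower at 2 h (-2.02 ± 0.12; adjusted p = 9.22e-11) and 5.34-fold lower at 24 h (-2.42 ± 0.13; adjusted p = 1.54e-11). XTH24, which lies beside XTH18 and XTH19 on chromosome 4, averaged 244.1 TPM at 0 h, 119.9 TPM at 2 h and 101.4 TPM at 7 d (n = 3 each), a log2 fold change of -1.07 ± 0.08 at 2 h (adjusted p = 1.4e-09) and -1.28 ± 0.08 at 7 d (adjusted p = 2.22e-10). XTH24 was not called by edgeR in tpst-1 roots with PSY5 (0.12; adjusted p = 0.676), but was called higher there without tpst-1 replicate 3 (0.43; 0.0186), as it was in tpst/psyr1,2,3 roots (0.60; 0.00103). In tpst-1 shoots with PSY5 it had 145, 115, 135 and 136 TPM, against 39, 77, 70.2 and 88.3 TPM without the peptide, and the call was missed narrowly (0.75 ± 0.23; adjusted p = 0.0574). These groups do not overlap, and XTH24 was called there by DESeq2 (adjusted p = 0.0225), with the compared groups alone (0.0162) and without tpst-1 replicate 4 (0.84; 0.0488). XTH33, an enzyme anchored in the plasma membrane, had 9.41, 8.78 and 9.11 TPM at 0 h and at most 3.47 TPM in any library of the other seedling groups, being 3.13-fold lower at 2 h (adjusted p = 1.31e-05) and 3.45-fold lower at 7 d (adjusted p = 3.98e-06). XTH18 had means of 48.13, 37.5, 33.38, 26.04 and 17.86 TPM at 0 h, 2 h, 6 h, 24 h and 7 d, and its log2 fold change against 0 h was -0.41 ± 0.13 at 2 h (adjusted p = 0.0343) and -1.45 ± 0.13 at 7 d (adjusted p = 6.43e-08). Among the groups from 2 h to 7 d only 24 h against 6 h was tested, and XTH18 was not called there. The 2 h call was lost without replicate 1 or 2 of 0 h or of 2 h (adjusted p = 0.0606 to 0.212). XTH30 completes the 6 members lower at all 4 times, at 7.08 TPM at 0 h and 3.49 TPM at 2 h (-1.08 ± 0.19; adjusted p = 0.00031). Its calls at 24 h and 7 d were lost without replicate 1 of 0 h (adjusted p = 0.103 and 0.202) or without other single libraries.

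Higher at all 4 times were XTH7 and XTH13. XTH13, a root-expressed gene, had 6.36, 3.8 and 5.31 TPM at 0 h, 12.3, 12.8 and 12.5 TPM at 2 h, 7.56, 10.1 and 10.5 TPM at 6 h, 7.62, 7.8 and 9.82 TPM at 24 h and 10.3, 11.2 and 9.41 TPM at 7 d. It was 2.34-fold above 0 h at 2 h (1.23 ± 0.18; adjusted p = 2.94e-05), and the 24 h call was lost without replicate 2 of 0 h or replicate 3 of 24 h (adjusted p = 0.0859 and 0.0844). XTH7 had 126, 103 and 96.6 TPM at 0 h, 145, 142 and 156 TPM at 2 h, 175, 168 and 177 TPM at 6 h, 154, 151 and 169 TPM at 24 h and 134, 152 and 143 TPM at 7 d. It was 1.55-fold above 0 h at 6 h (0.63 ± 0.08; adjusted p = 1.08e-05), which is the opposite direction to its fall in tpst-1 roots given PSY5. The difference between those 2 comparisons was not tested. XTH7 was 5.40-fold lower in tpst-1 roots than in tpst-1 shoots (log2 fold change -2.43), and whole seedlings hold both organs. In tpst-1 shoots given PSY5 it was not called, and the part of organ mixture was not tested.

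**Figure D5:**
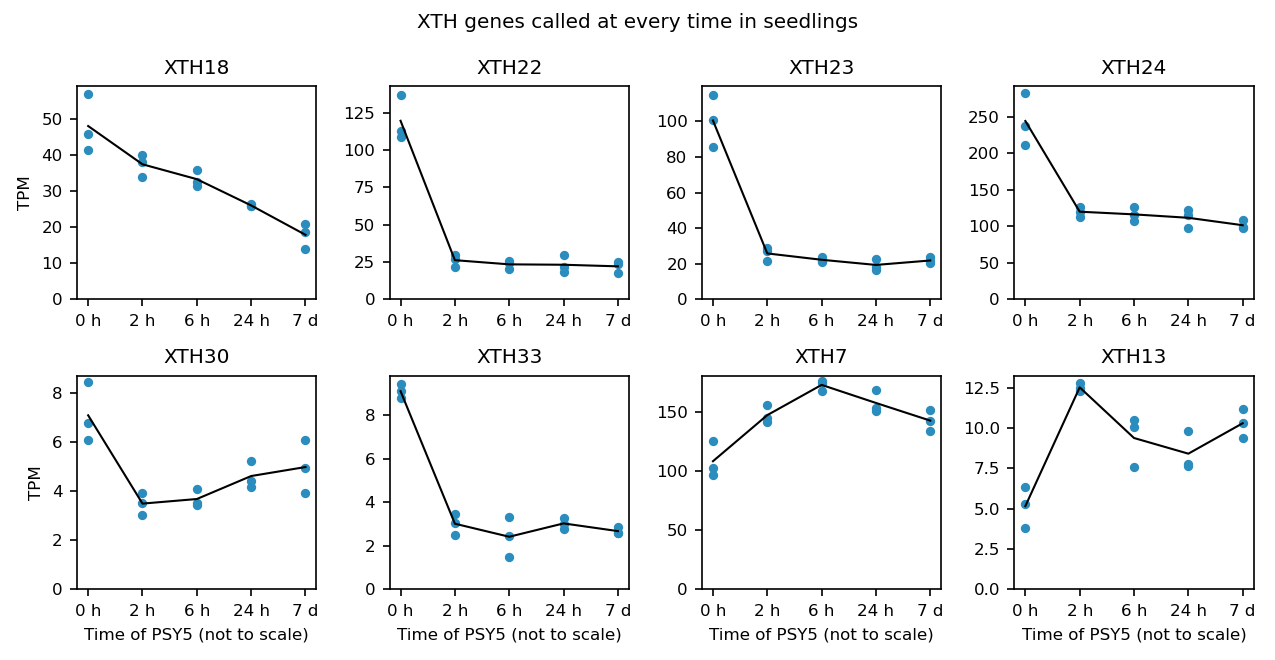
TPM of the 8 XTH genes called in 1 direction at all 4 times of PSY5 in tpst-1 seedlings, with each library as a dot, a line through the means of 3 libraries and times in order but not to scale. XTH22, XTH23, XTH24 and XTH33 are low in every group from 2 h to 7 d, XTH18 is lowest at 7 d, and XTH7 and XTH13 lie above their level at 0 h. Seedlings of all groups, 7 d among them, are labelled 7 days old.

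The hydrolase-type pair XTH31 and XTH32 was higher than at 0 h at 2 h and 6 h, but not at 7 d. XTH31 had 234, 218 and 184 TPM at 0 h, 329, 296 and 340 TPM at 2 h, 306, 308 and 326 TPM at 6 h, 405, 348 and 310 TPM at 24 h and 202, 229 and 228 TPM at 7 d. The libraries of 2 h, 6 h and 24 h lay above those of 0 h (log2 fold changes of 0.55, 0.52 and 0.70, adjusted p = 0.000113, 0.000203 and 5.24e-06), while those of 7 d overlapped them and were not called. XTH32 averaged 22.06 TPM at 0 h, 34.41 TPM at 2 h, 33.11 TPM at 6 h and 17.46 TPM at 7 d, higher at 2 h and 6 h (0.59 and 0.53, adjusted p = 0.000478 and 0.00118) and lower at 7 d (-0.34, adjusted p = 0.0341, lost in 5 of the 6 fits that leave out 1 library). In tpst-1 roots given PSY5 both genes fell, XTH31 to 298, 309 and 275 TPM, against 412, 399 and 446 TPM in tpst-1 roots. Other calls belonged to single times or pairs of times. At 6 h XTH6 (0.51) and XTH9 (0.26) were higher and at 24 h XTH27 was lower (-0.25), on the log2 scale. XTH21 was higher at 24 h and 7 d, where it reached 2.82, 2.51 and 1.69 TPM, against 0.796, 0.793 and 0.175 TPM at 0 h (1.88 ± 0.42; adjusted p = 0.00264). At 7 d XTH5 (0.98) and XTH26 (0.77) were higher and XTH16 (-0.64) and XTH11 (-2.29) lower, and XTH15 was higher at 2 h (0.53) and 7 d (0.59). XTH11 was low throughout, at 0.322 to 3.16 TPM over all seedling libraries. Calls lost on leaving out 1 library were XTH15 at 2 h and 7 d (adjusted p up to 0.226), XTH9 at 6 h (without replicate 2 or 3 of 6 h, up to 0.0813), XTH27 at 24 h (without replicate 2 of 24 h, 0.0593), XTH21 at 24 h (without replicate 3 of 0 h or 24 h, up to 0.0634) and XTH26 at 7 d (without replicate 2 of 0 h, 0.063). For XTH15 these were replicates 1 and 3 of 0 h, 2 and 3 of 2 h and 2 of 7 d.

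Between 24 h and 6 h no member was called by edgeR, where 1.85% of all genes were, 0.769% higher and 1.08% lower. Without adjustment 6 members had p under 0.05, DESeq2 called 2 (XTH6 and XTH9) and edgeR without the filter on low values called 1 (XTH6). In the xyloglucan list, against 0 h, 7 of 17 tested genes were called at 2 h (5 higher, 2 lower), 6 at 6 h (4 and 2), 5 at 24 h (3 and 2) and 6 at 7 d (1 and 5). These are 41.2%, 35.3%, 29.4% and 35.3% of the genes tested, beside 12.5%, 14.5%, 14.1% and 19.4% of all genes. XXT1 averaged 18.1 TPM at 0 h, 10.5 TPM at 2 h and 8.21 TPM at 7 d (-0.84 ± 0.10 at 2 h, adjusted p = 4.23e-06, and -1.18 ± 0.10 at 7 d, adjusted p = 5.16e-08). CSLC4, a glucan synthase for the xyloglucan backbone, averaged 49.75 TPM at 0 h, 33.2 TPM at 2 h and 25.56 TPM at 24 h (-0.63 ± 0.07, adjusted p = 2.18e-06, and -1.0 ± 0.08, adjusted p = 3.02e-09). XLT2, a galactosyltransferase, was higher at 2 h than at 0 h by 0.54 ± 0.09 on the log2 scale (adjusted p = 0.000199), with means of 12.53 TPM at 0 h and 18.89 TPM at 2 h. The photosynthesis markers, all 8 called higher at 7 d, summed to 24000 to 26900 TPM at 0 h and 31000 to 34000 TPM at 7 d, and the root markers to 708 to 924 TPM at 0 h and 603 to 643 TPM at 7 d. The part of such shifts in the 7 d results was not tested.

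Over the 16 comparisons XTH22 was called most often of the members, in 12, of which 11 were lower in the first-named group and the 1 higher value was tpst-1 over wild-type shoots. Many comparisons share tpst-1 or 0 h libraries, so these calls are not independent of each other, and other genes were not tallied this way. XTH23 followed with 11 calls, XTH7 and XTH18 with 9 each and XTH9, XTH16 and XTH30 with 8 each. XTH5, XTH13, XTH14, XTH17, XTH19 and XTH21 were called 3 to 6 times and never lower. Members called once or in a pair of comparisons were XTH4, XTH8, XTH10, XTH11, XTH12, XTH26 and XTH27. The 11 members that lie next to another member form 4 clusters, and neighbours did not always move together. XTH14 and XTH23 lie side by side, and in roots XTH14 was higher (156.9 ± 10.4 TPM with PSY5, 124 ± 13.4 TPM in tpst-1 roots) where XTH23 was lower.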

How the data were processed

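RNA was extracted as total RNA with a column kit, and libraries came from TruSeq v2 or NEBNext Ultra II kits, per the labels' protocols, which tie no kit to a sample. The deposited tables give each gene's length, TPM and expected counts as the authors estimated them, with the genome build TAIR10 per the submitters' processing notes. The quantifying program is unnamed in those labels, and the loci of the 3 receptor genes were not analysed here.

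Expected counts were rounded and tested with edgeR 4.0.16 (quasi-likelihood, TMM normalization; R 4.3.3) in 1 fit per tissue, and in 1 fit of the 29 root and shoot libraries for organ differences. Genes reaching 1 TPM in 3 or more libraries (roots, seedlings) or 4 or more (shoots, joint fit) were tested, p-values were adjusted by Benjamini-Hochberg over all of them, and 0.05 was the threshold. A log2 fold change from edgeR is relative to the bulk of genes, whereas TPM is relative to each library's total. Alternatives were median-of-ratios size factors, DESeq2 1.42.0, limma 3.58.1 on log2(TPM + 1), other filters, compared groups alone, replicate blocks and leaving out each library. Scripts were tested on simulated data.

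Called members were named, the 10 with the largest change where more were called, as were the 5 highest genes per tissue. Other members named for a contrast were chosen after their values were seen. The members and lists were chosen with earlier results of these data known. Promoter and coding sequences are RefSeq's, TAIR10.1.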

Additional observations from a re-analysis of the deposited data

Results flagged for a closer look

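In 3 of 60 groups of 4 shoot libraries, checked for 12 members, 1 library stood apart from the other 3, and chance flags about 1 in 20 such groups. XTH6 had 50.6 TPM in replicate 4 of wild-type shoots, where the other 3 had 69.1 to 71.7 TPM. XTH8 had 9.96 TPM in replicate 1 of tpst-1 shoots, where the others had 21.4 to 23.5 TPM. XTH23 had 6.94 TPM in replicate 2 of psyr1,2,3 shoots, where the others had 3.09 to 3.46 TPM.

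The root effect minus the shoot effect passed the test for 10 values (edgeR, adjusted p under 0.05). For PSY5 in tpst-1 it was 1.02 for XTH5, -2.15 for XTH7, -1.21 for XTH9, 1.63 for XTH16, 1.56 for XTH17 and -2.07 for XTH23, on the log2 scale. For loss of the receptors it was -0.76 for XTH9, 2.00 for XTH16, 1.04 for XTH17 and 0.84 for XTH30. Both sets use the same tpst-1 libraries.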

How the results depend on the processing

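Of 140 calls of a member in a comparison, 99 held under every alternative run, including those of XTH22 except in psyr1,2,3 against wild-type shoots and in tpst/psyr1,2,3 against PSY5 in shoots. The direction turned for 3 values, all with limma on log2(TPM + 1), namely XTH28 in tpst/psyr1,2,3 against tpst-1 shoots (0.01) and XTH28 (0.12) and XTH32 (0.01) in tpst-1 roots against tpst-1 shoots. Counts of called members that moved by over 1.5 times were 3 with DESeq2 and 2 with the compared groups alone for PSY5 in shoots, 2 with limma for psyr1,2,3 against wild type, 1 with limma and 4 with the compared groups alone for tpst/psyr1,2,3 against PSY5 in shoots, 5 with the compared groups alone for tpst/psyr1,2,3 against tpst-1 shoots, 2 with the compared groups alone for the root minus shoot effect of receptor loss, and, for 24 h against 6 h, 1 without a filter and 2 with DESeq2; the cause was not tested. Leaving out 1 library gave 12 to 14 calls for PSY5 and 9 to 12 for receptor loss in roots, 0 to 1 between these groups, 7 to 9 for tpst-1 against wild-type shoots, 1 to 5 for psyr1,2,3, 1 to 4 for PSY5 in shoots, 7 to 9 for receptor loss in shoots, 2 to 3 between those groups, 9 to 10, 11 to 12, 8 to 11 and 12 to 14 at the 4 seedling times, 0 to 0 for 24 h against 6 h, 25 to 26 for roots against shoots, and 6 to 8 and 1 to 5 for the root minus shoot effects.

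Replicate numbers did not pair the samples, as same-numbered libraries correlated at -0.13 to 0.11 after removal of group means. With the replicate number as a block, called members were 15, 13 and 1 in the root comparisons (PSY5, receptor loss, one against the other), 8, 5, 1, 7 and 2 in shoots (tpst-1, psyr1,2,3, PSY5, receptor loss, one against the other), 9, 12, 12 and 15 in seedlings, 0 for 24 h against 6 h, and 6 and 4 for root minus shoot effects. The block was set within each tissue, so it gives no value for tpst-1 roots against shoots, and a block across tissues was not run. Shoots had the largest fitted spread between libraries, a measure that leaves out read depth and the number of libraries.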
